A study of Mus musculus with 9 samples.

Results

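Sestrins and other brakes on mTORC1 signalling and cap-dependent translation, 10 genes in all, were followed in mouse tibialis anterior muscle: the sestrins Sesn1, Sesn2 and Sesn3, the stress-response pair Ddit4 and Ddit4l, the translation repressors Eif4ebp1 and Eif4ebp2, the mTOR-binding inhibitor Deptor, and the tuberous sclerosis genes Tsc1 and Tsc2. They were selected by symbol, and all 10 were found among the 14300 protein-coding genes listed in both deposited tables. Sesn1 and Eif4ebp1 were put on the list because their values changed between the groups of these same libraries, so their values are a description and carry no test. The other 8 genes joined them by function, but with earlier results of these data known, so they were not picked blind. Of these 8, 7 were high enough to be tested.

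RNA was taken 4 weeks after treatment from C57BL/6J males, with 3 libraries in each of 3 groups. The control group is named sham in the tables. The ORX group had been castrated, and the ORX+DHT group had been castrated and then received dihydrotestosterone, an androgen that binds the androgen receptor directly and is not converted to oestrogen. No transgene or deletion is named for any group, and the age of the mice and the dose and route of the hormone are not given in the sources used here. Replicates are labelled biological without saying that each is 1 animal, so p-values measure the spread between these samples.

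mTORC1 is the kinase complex on the lysosome that couples amino acids and growth factors to protein synthesis, and muscle growth under load depends on it. Sestrins bind the GATOR2 complex and so keep the Rag GTPases from recruiting mTORC1, while TSC1 and TSC2 together switch off its activator Rheb, a step that the Ddit4 proteins (REDD1 and REDD2) favour. The 4E-BP proteins encoded by Eif4ebp1 and Eif4ebp2 hold the cap-binding factor eIF4E until mTORC1 phosphorylates them, so their activity is set mostly by phosphorylation, which RNA levels do not show.

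Between 1340209 and 1682235 reads per library were recovered. Levels are given as normalised counts, reads divided by 1 scaling factor per library, with all 9 libraries on a joint scale. Control replicate 1 stood apart within these genes: it held the lowest value of all 9 libraries for Ddit4, Eif4ebp2, Tsc1 and Tsc2 and the highest for Deptor, so their comparisons with control are also given without it. The 7 fast-fibre markers, which include Acta1, Ckm and Myh4, were present at a summed level of 212800 to 304600. The sum of 6 fibroblast markers lay between 1374 and 2759 in control libraries, between 2912 and 3902 in ORX, and between 1731 and 2440 in ORX+DHT, so ORX lay above both other groups. The fast-fibre sum ran the other way, from 254400 to 304600, 212800 to 224700 and 232000 to 252700. Col1a1, 1 of the 6 fibroblast markers, averaged 846, 1682 and 750 in control, ORX and ORX+DHT. It held a large part of the fibroblast sum. No marker of these lists was at 0 in all libraries.

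Sesn1 lies on chromosome 10 of GRCm38 (41809935 to 41908424, plus strand) and Ddit4l on chromosome 3 (137621612 to 137628333, plus strand) in GENCODE M21, and Eif4ebp1 on chromosome 8 (27260329 to 27276674, plus strand). These are the 3 genes the values below turn on. The others lie on chromosome 4 (Sesn2, 132492032 to 132510501), 9 (Sesn3, 14275067 to 14333101), 10 (Ddit4, 59949669 to 59951834, and Eif4ebp2, 61428491 to 61452661), 15 (Deptor, 55112317 to 55259271), 2 (Tsc1, 28641228 to 28691167) and 17 (Tsc2, 24595816 to 24632630). No other annotated transcript matched the longest coding transcript of any of the 10 genes at 95% identity over 200 bases on the same strand. Tsc2 shares 693 exon bases (7.2% of its exons) with Pkd1 on the opposite strand, and Deptor 303 (3.41%) with Gm9920. Whether counting used the strand is not given in the sources used here, so those 2 genes are the less certain ones.

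Promoter windows from RefSeq (build GRCm38.p6), from 250 bases before to 50 after a gene start, were at hand for 8 of the 10 genes (9 windows). Eif4ebp1 and Deptor had none, so the search does not cover them. The 9 windows were searched on both strands for 4 motifs. The androgen and glucocorticoid response element (AGAACA, any 3 bases, then TGTNCT) was in 0.0396% of all 32851 windows and in none of the 9. Its repeat unit AGAACA, which is part of the full element, was in 19% of all windows, and the ATF4 site TGATGNAA in 3.97%; neither was in the 9. The FoxO site GTAAACA was in 3.65% of all windows and in 1 of the 9, that of the upstream Sesn1 start. There it reads on the minus strand from 23 bases after the start. All 250 bases before that start are annotated Sesn1 exon in GENCODE M21, where the gene begins further upstream (41809935). The FoxO site is shown with 10 bases on either side and the match in capitals, at chr10:41810586-41810612.
Sesn1 FoxO match: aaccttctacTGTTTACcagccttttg
The 250 bases before the downstream Sesn1 start (chr10:41887189-41887438, plus strand) and before the Ddit4l start (chr3:137623422-137623671, plus strand) are shown because both genes were lower in ORX+DHT than in ORX muscle. They hold no match and so no capitals.
Sesn1 downstream start: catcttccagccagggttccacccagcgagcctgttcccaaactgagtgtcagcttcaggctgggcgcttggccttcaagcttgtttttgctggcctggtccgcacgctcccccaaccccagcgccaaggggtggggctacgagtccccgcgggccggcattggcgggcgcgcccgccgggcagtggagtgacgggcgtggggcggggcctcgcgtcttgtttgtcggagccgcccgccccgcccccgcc
Ddit4l: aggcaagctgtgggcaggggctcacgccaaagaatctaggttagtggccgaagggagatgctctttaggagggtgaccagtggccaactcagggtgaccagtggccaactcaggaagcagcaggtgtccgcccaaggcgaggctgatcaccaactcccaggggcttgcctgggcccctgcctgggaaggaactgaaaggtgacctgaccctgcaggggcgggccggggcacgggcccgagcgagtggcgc
A match, or its lack, describes these letters only.

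Sesn1, which p53 and FoxO factors are known to induce, was high in castrated muscle and near the control level after DHT. It stood at 41.2, 25.4 and 32.8 normalised counts in control replicates 1, 2 and 3, at 71.7, 73.4 and 85.2 in ORX, and at 29.4, 35.8 and 43.5 in ORX+DHT muscle. Every ORX library lay above every library of the other groups, while control and ORX+DHT overlapped. The log2 fold change was 1.21 (SE 0.21) in ORX against control, about 2.31-fold higher, and -1.08 (SE 0.17) in ORX+DHT against ORX. Between ORX+DHT and control it was 0.13 (SE 0.24, 95% interval -0.40 to 0.67). Sesn1 had been chosen on these contrasts and no test is drawn from them. Reads behind these values numbered 23 to 103 per library, so counting error alone is sizeable. ORX is also the group in which the fibroblast marker sum was high and the fast-fibre sum low, and in a whole muscle a shift in cell makeup and a change of RNA per cell cannot be told apart; their part in the Sesn1 values was not tested. Of the 6 fibroblast markers, 2 fell from ORX to ORX+DHT by limma, and none was at 0. In ORX against control 5 were higher and 1 was lower, and 0 passed with limma or edgeR and 1 with DESeq2.

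**Figure D1:**
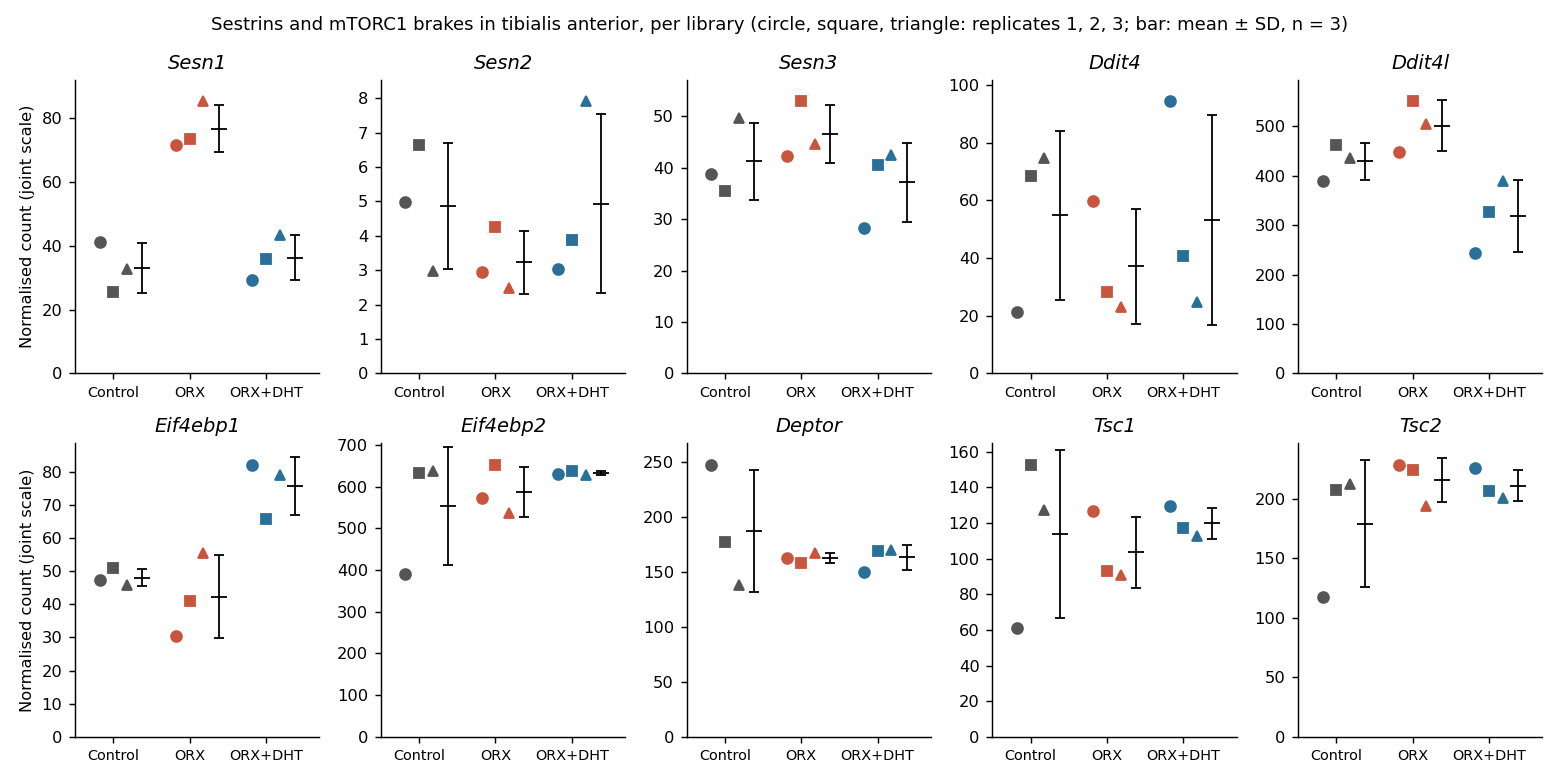
Normalised counts (joint scale, y axis from 0) of the 10 genes in each library of the control, ORX and ORX+DHT groups (x axis); circles, squares and triangles are replicates 1, 2 and 3, and the black bar is the mean with its SD (n = 3). Sesn1 is high in the 3 ORX libraries (71.7 to 85.2), Eif4ebp1 is high in the 3 ORX+DHT libraries (65.7 to 82.1), and Ddit4l is low in the 3 ORX+DHT libraries (243 to 388).

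Sesn3, a sestrin also induced by FoxO factors, did not pass in any comparison. It stood at 38.7, 35.4 and 49.7 in control, 42.2, 52.9 and 44.7 in ORX, and 28.4, 40.6 and 42.5 in ORX+DHT muscle, and the 3 groups overlapped. Its log2 fold change in ORX+DHT against ORX was -0.33 (95% interval -0.73 to 0.07, adjusted p by limma 0.459). Between ORX and control it was 0.18 (-0.27 to 0.63, adjusted p by limma 0.846). The second interval reaches 1.55-fold higher. Without single libraries the first value ran from -0.44 to -0.16 (the latter without ORX+DHT replicate 1), and the second from 0.079 to 0.31 (without control replicates 2 and 3). Sesn2, the leucine-binding stress sestrin, was barely detected, with 3 to 8 reads per library and 2.48 to 7.91 normalised counts. It was left out of the tests because its mean fell below 10, and its groups overlapped.

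Ddit4l, for REDD2, which is abundant in skeletal muscle, stood at 390, 462 and 435 in control, 448, 550 and 505 in ORX, and 243, 327 and 388 in ORX+DHT muscle. Each ORX+DHT library lay below each library of the other groups, although the highest of them (388) came close to the lowest control (390). Its level fell from ORX to ORX+DHT by 0.67 on the log2 scale, with an SE of 0.13, a 95% interval of -0.95 to -0.39 and an adjusted p of 0.00515 by limma. That is 1.59-fold lower. The call was kept without each single library (adjusted p by limma 0.000541 to 0.0416) and lost with robust variance estimates or with all 9 libraries in 1 fit (0.0513 and 0.0555). For ORX+DHT against control the log2 fold change was -0.45 (95% interval -0.83 to -0.06), with an unadjusted p of 0.0277 and a limma adjusted p of 0.736, and in ORX against control it was 0.22 (-0.10 to 0.54, adjusted p by limma 0.758). The summed level of 4 smooth muscle and pericyte markers was 1279 to 1298 in ORX+DHT libraries and 1000 to 1182 in the others. This sum set the same libraries apart as Ddit4l and Eif4ebp1. Taken singly, 0 of the 4 markers passed with limma, edgeR or DESeq2 in ORX+DHT against ORX, where 3 were higher and 1 was lower. The sum of 5 slow-fibre markers lay between 162 and 213 in ORX libraries, between 81 and 124 in ORX+DHT, without overlap, and between 110 and 262 in control; 1 of the 2 slow-fibre markers tested fell from ORX to ORX+DHT by limma. The part of either sum in the Ddit4l and Eif4ebp1 values was not tested.

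Ddit4, for REDD1, an acute stress and glucocorticoid response gene, varied widely within each group. It stood at 21.2, 68.5 and 74.5 in control, 59.9, 28.2 and 23.2 in ORX, and 94.2, 40.6 and 24.7 in ORX+DHT muscle. The highest library of each group was well above its lowest, and the groups overlapped. The log2 fold change in ORX+DHT against ORX was 0.42 (95% interval -0.37 to 1.20, adjusted p by limma 0.688), an interval that reaches 2.30-fold higher. In ORX against control it was -0.48 (-1.47 to 0.51, adjusted p by limma 0.818), and in ORX+DHT against control -0.07 (-1.17 to 1.04, adjusted p by limma 0.977). Without control replicate 1 these last values were -1.05 and -0.63.

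Eif4ebp1, for the 4E-BP1 repressor of eIF4E, was high in the DHT-treated muscle. It stood at 47.4, 50.9 and 45.7 in control, 30.4, 40.9 and 55.4 in ORX, and 82.1, 65.7 and 79.1 in ORX+DHT muscle. Every ORX+DHT library lay above every other library, and the ORX range spanned the control range. The log2 fold change was 0.86 (SE 0.19) in ORX+DHT against ORX, 0.64 (SE 0.18) in ORX+DHT against control and -0.22 (SE 0.23) in ORX against control. Like Sesn1, Eif4ebp1 had been chosen on these contrasts, so these sizes are a description. The value against ORX was 0.65 without ORX replicate 1. Reads numbered 31 to 81 per library.

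Eif4ebp2, for the second 4E-BP, stood at 390, 633 and 638 in control, 573, 653 and 537 in ORX, and 631, 637 and 627 in ORX+DHT muscle. The low control value is that of replicate 1, and the other 8 libraries lay between 537 and 653. Between ORX+DHT and ORX the log2 fold change was 0.11 (95% interval -0.07 to 0.29, adjusted p by limma 0.636), an interval that ends at 1.23-fold higher. For ORX+DHT against control it was 0.23 with all libraries (adjusted p by limma 0.794) and -0.0083 without control replicate 1. In ORX against control it was 0.12 (adjusted p by limma 0.911), and -0.12 without that library.

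**Figure D2:**
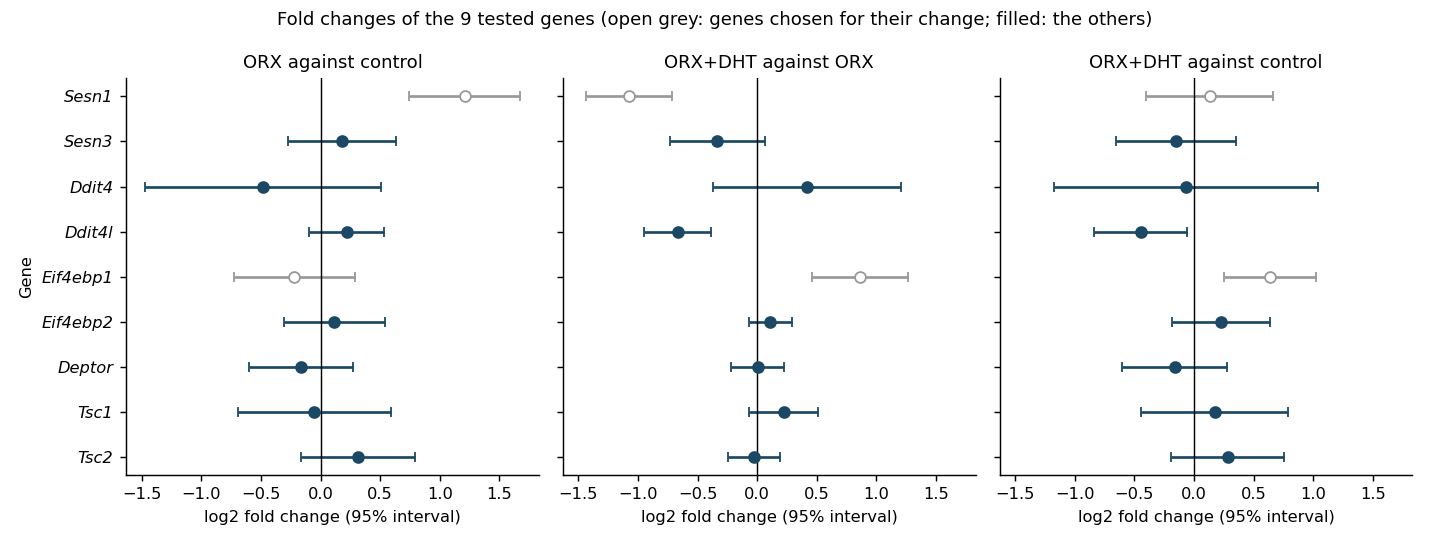
log2 fold change (x axis) of the 9 tested genes (y axis) in each of the 3 pairwise comparisons of groups (panels), with 95% intervals from limma; open grey points are Sesn1 and Eif4ebp1, chosen for their change. The interval of Ddit4l in ORX+DHT against ORX (-0.95 to -0.39) lies below 0, and those of Deptor and Tsc2 there are narrow and hold 0.

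Deptor, whose product binds mTOR itself, did not pass in any comparison. It stood at 247, 177 and 138 in control, 163, 158 and 167 in ORX, and 150, 169 and 170 in ORX+DHT muscle. Its log2 fold change in ORX+DHT against ORX was 0.0021 (95% interval -0.22 to 0.22, adjusted p by limma 0.997), and the interval ends at 1.17-fold higher. The highest of all 9 libraries was control replicate 1. Against control the log2 fold change was -0.16 in both castrated groups, and 0.056 (ORX) and 0.058 (ORX+DHT) without that library.

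Tsc1, for hamartin, stood at 61.2, 153 and 127 in control, 127, 93 and 91 in ORX, and 130, 117 and 113 in ORX+DHT muscle. Tsc2, for tuberin, the part of the complex that acts on Rheb, stood at 117, 208 and 212, then 229, 224 and 194, then 226, 207 and 201. For both genes the groups overlapped, and control replicate 1 held the lowest value. Between ORX+DHT and ORX the log2 fold change of Tsc1 was 0.22 (95% interval -0.07 to 0.51, adjusted p by limma 0.5) and that of Tsc2 was -0.03 (-0.25 to 0.19, adjusted p by limma 0.941). In ORX against control they were -0.05 (-0.69 to 0.59) and 0.31 (-0.17 to 0.79), with limma adjusted p of 0.981 and 0.773. Without control replicate 1 these values were -0.44 and 0.034. For ORX+DHT against control they were 0.17 and 0.28 (adjusted p by limma 0.888 and 0.781), and -0.22 and 0.0047 without that library.

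Counted together, 3 of the 9 tested genes passed in ORX+DHT against ORX, where 4.08% of 8770 genes did (2.38% higher and 1.7% lower). They were Sesn1 and Eif4ebp1, which were chosen for it, and Ddit4l, so nothing is read from the total. Among the 7 tested genes not chosen that way the number was 1, though earlier results of these data were known when they were listed. In ORX against control 0 of 9 passed with limma, where 0.0579% of 8631 genes did. At an unadjusted p under 0.05 there was 1 gene, Sesn1, beside 7.21% of all genes. With edgeR 0 of the 9 were called, and with DESeq2 1, again Sesn1, as in the limma fit without control replicate 1. Sesn1 was chosen for its change, so nothing is read from these counts. Among the 7 tested genes not chosen that way, 0 had an unadjusted p under 0.05 with all libraries. Without control replicate 1, Ddit4 and Tsc1 fell under it by limma (0.00318 and 0.0158), as did 916 of 8609 genes in all. Their limma adjusted p there was 0.171 and 0.314, so neither was called. In ORX+DHT against control 0 of 9 passed with limma, where 0.0349% of 8595 genes did, and 0 passed with edgeR or DESeq2. There 2 were at an unadjusted p under 0.05, Ddit4l and Eif4ebp1, beside 6.48% of all genes. Eif4ebp1 was chosen for its change. Among the 7 tested genes not chosen that way the number was 1. The groups did not overlap for 1, 3 and 2 of the 9 genes in the 3 comparisons, beside 14.3%, 19.5% and 14% of all genes tested. These were Sesn1, then Sesn1, Ddit4l and Eif4ebp1, then Ddit4l and Eif4ebp1. Only Ddit4l among them was not chosen for its change, so nothing is read from these counts. In ORX+DHT against ORX 14.3% of all genes had an unadjusted p under 0.05. The ORX libraries enter both comparisons that involve ORX, so their signs are not independent of each other. The median log2 fold change of the 7 genes not chosen for their change was 0.12, 0.0021 and -0.07, beside -0.0077, 0.0062 and -0.0051 for all genes.

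**Figure D3:**
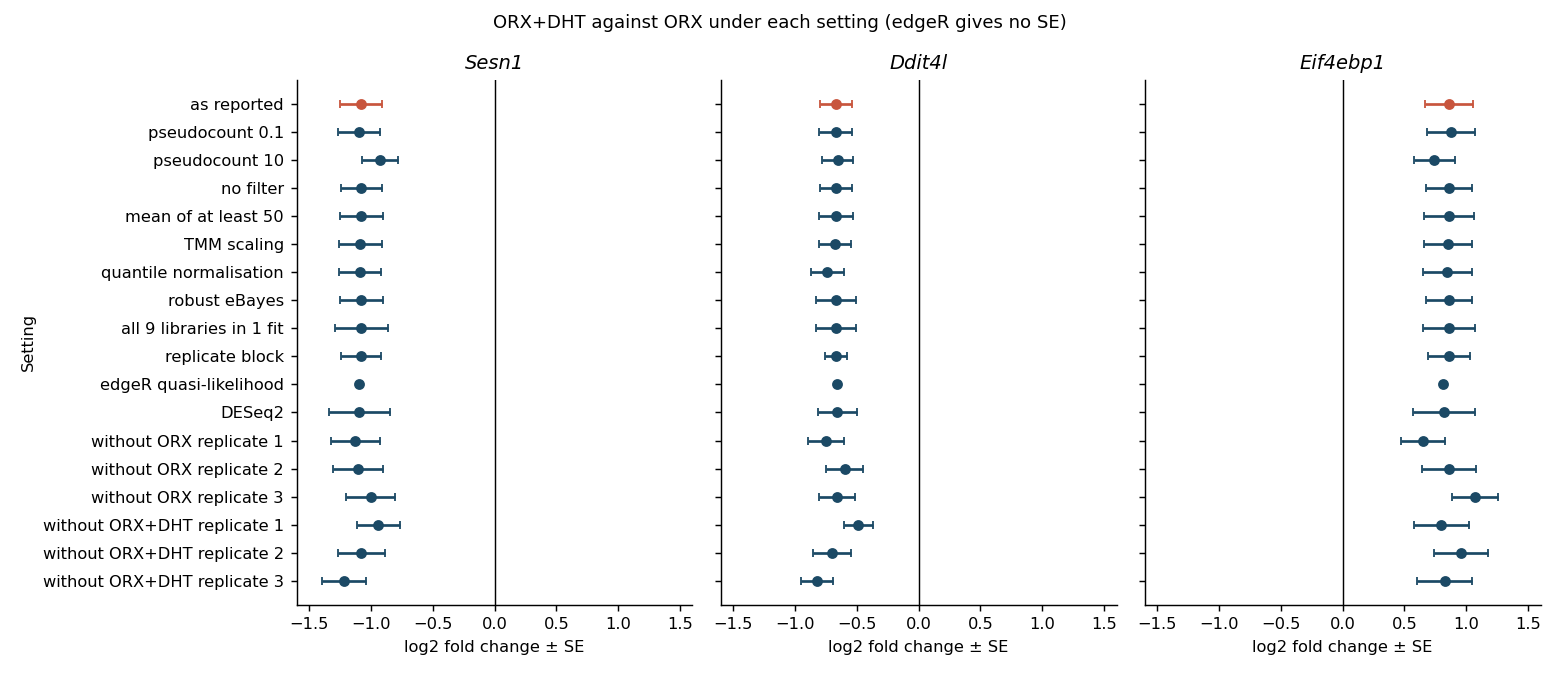
log2 fold change with its SE (x axis) of Sesn1, Ddit4l and Eif4ebp1 in ORX+DHT against ORX under each processing setting and with each library left out (y axis); the red point is the value as reported. Values ran from -1.21 to -0.92 for Sesn1, -0.82 to -0.49 for Ddit4l and 0.65 to 1.07 for Eif4ebp1, with no change of sign. Sesn1 and Eif4ebp1 were chosen for their change in these same libraries, so their values here are a description and not a check.

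Levels of different genes were compared per kilobase of exon, counting every annotated exon once. Such a length is too long where only some exons are used, as it may be for Sesn3 (15269 bases), so its per-kilobase level is a low estimate. In control muscle Ddit4l was the highest, at 147 ± 12.6 normalised counts per kilobase (SD, n = 3), followed by Eif4ebp2 at 95.7 ± 24.6. Ddit4, Eif4ebp1, Deptor, Tsc2, Tsc1 and Sesn1 followed, from 31.2 down to 8.32, each overlapping the next. Sesn3 (2.7) and Sesn2 (1.4) were lowest and separate from their neighbours. In ORX muscle Sesn1 stood at 19.3 ± 1.85 and overlapped Ddit4 and Eif4ebp1, its neighbours in that order. In ORX+DHT muscle Ddit4l (110 ± 25) overlapped Eif4ebp2 (109 ± 0.841), and Eif4ebp1 (34.4 ± 3.96) came next.

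On this per-kilobase scale Sesn1 made up 66.4 ± 6.06% of sestrin RNA in control muscle, 82.8 ± 2.93% after castration and 70.6 ± 2.35% with DHT added (SD, n = 3). The summed sestrin level was 12.4 ± 1.86, 23.3 ± 1.72 and 13 ± 2.94. These sestrin values depend on the exon length taken for Sesn3. Without division by length, Sesn3 averaged 41.25, 46.59 and 37.16 normalised counts and Sesn1 33.14, 76.73 and 36.21. Sesn3 was thus the higher of them in control and ORX+DHT muscle on that scale. Ddit4l made up 83.3 ± 7.39%, 89 ± 6.22% and 78 ± 15.4% of its pair, whose sum was 178 ± 28.4, 193 ± 10.3 and 140 ± 6.45. Eif4ebp1 was the minor 4E-BP transcript in all 9 libraries, at 19.2 ± 4.46%, 16 ± 4.8% and 23.9 ± 2.21% of the pair. The shares of Sesn1 and Eif4ebp1 follow from the changes they were chosen for, and all of these shares are a description.

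**Figure D4:**
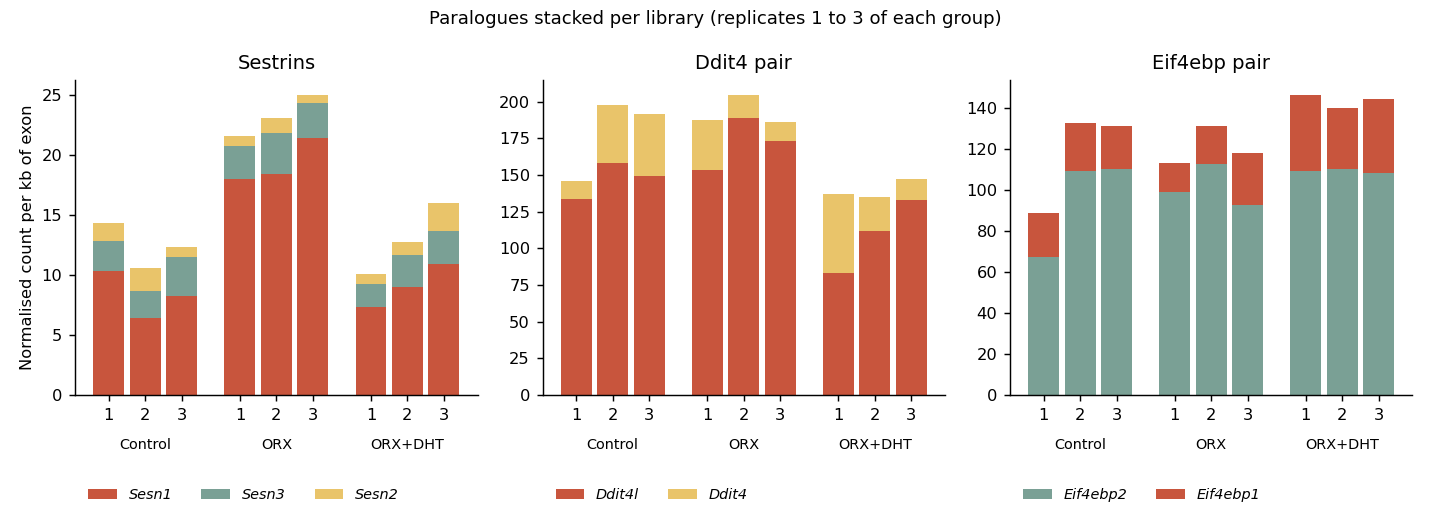
Normalised counts per kilobase of exon (y axis from 0) of the sestrins, the Ddit4 pair and the Eif4ebp pair, stacked for replicates 1, 2 and 3 of each group (x axis). At the exon lengths used, Sesn1 makes up most of the sestrin bar in each library, and the ORX sestrin bars are the tallest. Eif4ebp2 and Ddit4l make up most of their pairs.

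Around these brakes, 76 genes of mTORC1 wiring were listed in 5 groups: amino acid sensing by GATOR, lysosomal anchoring by Rag, the mTOR complexes with Rheb, input through insulin and Akt, and translation output. Of 68 tested in ORX+DHT against ORX, 1 rose and 1 fell, beside 4.08% of all genes, and 10 had an unadjusted p under 0.05, beside 14.3%. The median log2 fold change was -0.01, beside 0.01 for all genes. Against control 0 of 68 passed with limma in either castrated group, where 7 (ORX) and 5 (ORX+DHT) had an unadjusted p under 0.05, beside 7.21% and 6.48% of all genes, and 0 passed with edgeR or DESeq2. Grb10, an adaptor that inhibits the insulin receptor and is itself an mTORC1 substrate, stood at 45, 91.8 and 74.5 in control, 121, 107 and 85.2 in ORX, and 50.7, 60.9 and 58.3 in ORX+DHT muscle. From ORX to ORX+DHT it fell by 0.86 on the log2 scale, with an SE of 0.15, no overlap and an adjusted p of 0.00183 by limma, and lost the call only with all 9 libraries in 1 fit (0.0963). Mknk2, for a kinase that phosphorylates eIF4E, stood at 481, 515 and 499 in ORX and 732, 601 and 678 in ORX+DHT muscle. It rose by 0.42 on the log2 scale, with an SE of 0.088 and an adjusted p of 0.00774 by limma, but not without ORX+DHT replicate 1 (0.0737) or with all 9 libraries in 1 fit (0.225). Eef2k, for the kinase that slows elongation, had a log2 fold change of 0.43 and did not pass (adjusted p by limma 0.0716). By limma, edgeR and DESeq2, 0 genes passed among 13 of GATOR and amino acid sensing, 12 of Rag anchoring and 10 of the mTOR complexes, with 2, 0 and 1 at an unadjusted p under 0.05. The medians were -0.02, -0.09 and -0.05, and among genes with a mean of at least 50 the largest values in these lists were those of Castor2, Lamtor1 and Tti1, at -0.17, 0.22 and -0.41 (adjusted p by limma 0.464, 0.443 and 0.232).

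**Figure D5:**
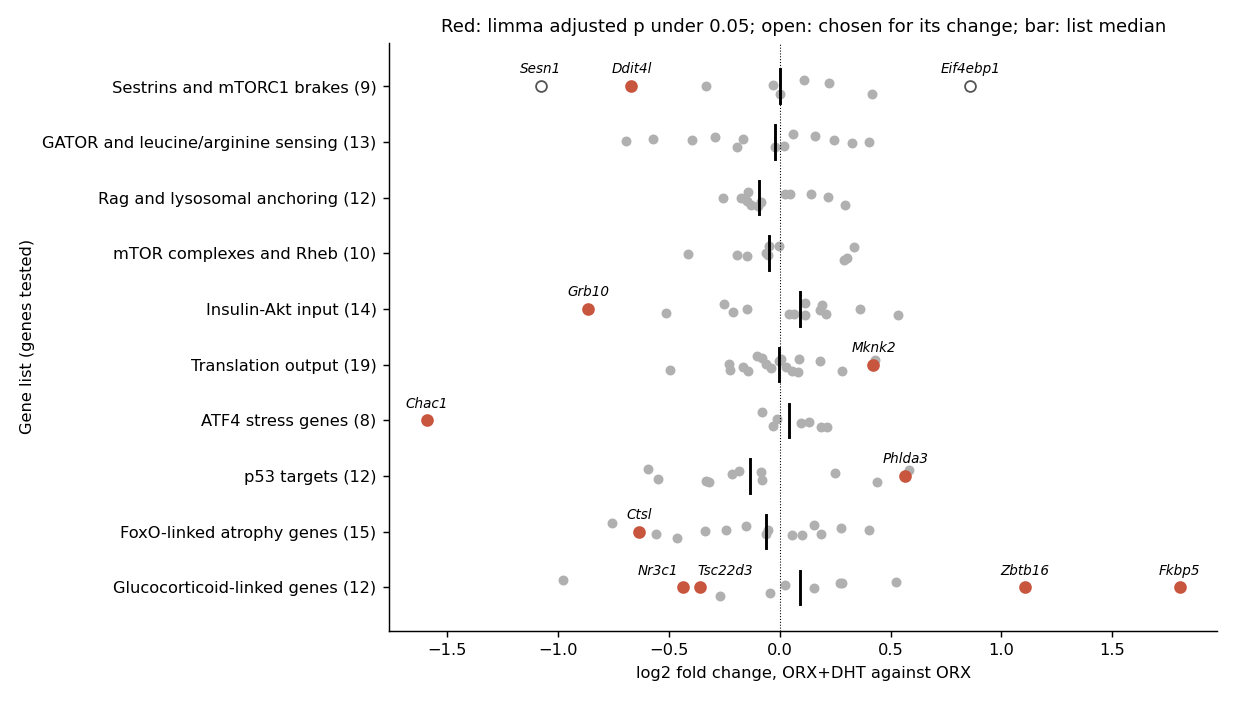
log2 fold change in ORX+DHT against ORX (x axis) of each tested gene in the 10 listed brakes and in 9 lists around them (y axis, number tested in brackets); red points passed at a limma adjusted p under 0.05, open points are Sesn1 and Eif4ebp1, and black bars are list medians. The list medians lie between -0.13 and 0.09, and the largest values among the points that passed are those of Fkbp5 (1.80) and Chac1 (-1.59).

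Programmes known to induce these brakes were listed as well: ATF4 stress genes (which include regulators of Sesn2 and Ddit4), p53 targets (p53 induces Sesn1 and Sesn2), FoxO-linked atrophy genes and glucocorticoid-linked genes. Of 47 tested in ORX+DHT against ORX, 3 rose and 4 fell, beside 4.08% of all genes, and 17 had an unadjusted p under 0.05, beside 14.3%. The median was -0.04. Against control 0 of 48 passed in ORX and 0 of 47 in ORX+DHT with limma, where 8 and 5 had an unadjusted p under 0.05, beside 7.21% and 6.48% of all genes; edgeR called 0 in both, and DESeq2 1 and 0. The glucocorticoid-linked list of 12 held 4 of the 7 genes, 2 higher and 2 lower, with 5 at an unadjusted p under 0.05. The androgen and glucocorticoid receptors share the response element named above, and which of them acted on these genes was not tested. Its Zbtb16, for a transcription factor, stood at 91.2, 156 and 137 in control, 106, 108 and 103 in ORX and 189, 234 and 272 in ORX+DHT muscle, a rise of 1.10 on the log2 scale (SE 0.13, adjusted p by limma 1.74e-05), and Fkbp5 rose by 1.80 (8.03e-06). Tsc22d3 fell by 0.36 and the receptor gene Nr3c1 fell by 0.43 on the same scale (0.0247 and 0.038 by limma, adjusted). Tsc22d3 lost its call without ORX replicate 2 or ORX+DHT replicate 1 or 3 (0.143, 0.112 and 0.101), and Nr3c1 without any one of the 6 libraries but ORX replicate 3 (0.0591 to 0.173). Both calls were also lost with DESeq2 (0.104 and 0.17) and with all 9 libraries in 1 fit (0.231 and 0.48).

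Each of the other 3 programme lists held 1 gene that passed. Among 12 p53 targets Phlda3, for an Akt repressor, rose by 0.57 on the log2 scale (SE 0.12, adjusted p by limma 0.0103), but not without ORX replicate 2 or ORX+DHT replicate 1 or 3 (0.0789, 0.0814 and 0.0584) or with all 9 libraries in 1 fit (0.299). In that list 3 genes had an unadjusted p under 0.05, and the median was -0.13. Among 15 FoxO-linked genes Ctsl, for a lysosomal protease, fell by 0.63 on the log2 scale (SE 0.10, adjusted p by limma 0.00105). In that list 8 genes had an unadjusted p under 0.05, beside 14.3% of all genes, and the median was -0.06. The log2 fold change was negative for 9 of the 15 and positive for 6. The 6 include the ubiquitin ligase genes Trim63 (0.40) and Fbxo32 (0.28), which did not pass (adjusted p by limma 0.0703 and 0.304). Among 8 ATF4 genes Chac1, for a glutathione-degrading enzyme, had 98.2, 63.1 and 160 in ORX and 12.2, 35.8 and 77.1 in ORX+DHT muscle, with overlapping groups. It fell by 1.59 on the log2 scale, with an SE of 0.43 and an adjusted p of 0.0453 by limma, a call which was lost without ORX replicate 1 or 3 or ORX+DHT replicate 1 or 2 (0.117, 0.147, 0.204 and 0.103), and with DESeq2 (0.791) or robust variance estimates (0.5). Chac1 was the 1 gene of its list at an unadjusted p under 0.05, and the list median was 0.04.

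Among genes with a mean of at least 50, those whose log2 levels followed Sesn1 closely over the 9 libraries included Suclg2, Col1a2, Col1a1 and Eif4a2, with Pearson's r of 0.92, 0.907, 0.889 and 0.881. Col1a1 and Col1a2 encode the chains of type I collagen. Col1a1, which is also 1 of the 6 fibroblast markers above, averaged 846 normalised counts in control, 1682 in ORX and 750 in DHT-treated muscle. The lowest values were those of Trp53inp2, Myom2 and Tmem38b (-0.968, -0.934 and -0.931). For Eif4ebp1 the closest were Cuedc1, Cs, Ace, Slc49a4 and Sun2 (r of 0.976, 0.943, 0.928, 0.926 and 0.923), among them the citrate synthase gene Cs, and the lowest were Obsl1, Ccdc127 and Angptl2 (-0.929, -0.925 and -0.915). Between Sesn1 and Eif4ebp1 r was -0.471. The 9 points share their libraries and scaling factors and fall into 3 groups, and these values are a description of likeness among 3795 and 3794 genes searched.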

How the data were processed

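RNA of tibialis anterior muscle was sequenced from 3 control, 3 ORX and 3 ORX+DHT samples, as poly(A) RNA in directional libraries per the labels' protocols. The submitters' processing notes name Trim Galore 0.6.7, HISAT2 2.2.1, featureCounts 2.0.1, DESeq2 1.36.0 and the build GRCm38; the annotation and strand setting are not given in the sources used here. The authors deposited 2 tables of normalised counts (a signal: reads over 1 factor per library), scaled separately: control with ORX (14596 genes) and ORX with ORX+DHT (14675). In each column 100% of values were whole multiples of 1 step within 1e-06 reads, so reads were recovered. The step nearest 1 was that of control replicate 3, at 0.992. Sham columns were taken as control by replicate number.

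Each comparison used limma 3.58.1 (R 4.3.3, trended eBayes) with log2 values taken after a pseudocount of 1, which understates fold changes of low genes. Genes below a mean of 10 were left out. Benjamini-Hochberg adjustment ran over all genes tested, and a gene was called where the adjusted p was below 0.05. ORX+DHT against control used the 14300 shared genes rescaled jointly. Alternatives were other pseudocounts (0.1, 10) and filters (none, 50), TMM and quantile scaling, robust variance estimates, all 9 libraries in 1 fit, a replicate block, each library left out, and edgeR 4.0.16 and DESeq2 1.42.0 on recovered reads. The limma fits were also run on simulated counts with the same dispersion for all genes. The edgeR and DESeq2 fits were not. Members and lists were chosen with earlier results of these data known. Genes named from lists were those called, plus the 1 largest change per list with a mean of at least 50. For each of Sesn1 and Eif4ebp1, the genes most alike were the 5 highest and 3 lowest by Pearson's r; 1 of them is not reported here.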

Additional observations from a re-analysis of the deposited data

How the results depend on the processing

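In ORX against control the number of listed brakes called was 0. With no filter, with all 9 libraries in 1 fit and with DESeq2 it became 1 (Sesn1, chosen for its change). In ORX+DHT against ORX it was 3, and became 2 with robust variance estimates and 1 with all 9 libraries in 1 fit. Leaving out single libraries gave 0 to 1 and 2 to 3, and in ORX+DHT against control 0 under each setting run. Over all genes the counts were 5, 358 and 3. They became 16, 370 and 21 with no filter, 23, 123 and 11 with all 9 libraries in 1 fit, and 28, 224 and 13 with DESeq2, and quantile normalisation gave 6 in ORX+DHT against control. Leaving out single libraries gave 1 to 51 (51 without control replicate 1, 21 without control replicate 3, and 1, 1 and 2 without ORX replicates 1, 2 and 3), 223 to 350 (223 without ORX+DHT replicate 1), and 0 to 66 (66 without control replicate 1, 1 without control replicate 3 or ORX+DHT replicate 1, 0 without ORX+DHT replicate 3, where 318 genes had an unadjusted p under 0.05 by limma). The cause was not tested.

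With the replicate number as a block, 571 genes and 3 brakes were called in ORX+DHT against ORX, and the other counts stayed at 5 and 3. Same-numbered libraries correlated in their deviations at 0.0633, 0.0681 and 0.153 there, each best with its own number, at -0.168, 0.0614 and -0.108 in ORX against control, and at -0.0944, -0.00347 and -0.096 in ORX+DHT against control. The numbers were not taken to pair the samples.

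The values that changed sign had not been called. Deptor in ORX+DHT against ORX became -0.0049 with TMM, -0.017 with quantile normalisation, -0.0050 with edgeR and -0.0038 with DESeq2. Without single libraries, log2 fold changes in ORX against control ranged from -0.12 to 0.23 for Eif4ebp2, -0.36 to 0.056 for Deptor and -0.44 to 0.21 for Tsc1. In ORX+DHT against ORX they ranged from -0.099 to 0.85 for Ddit4, -0.028 to 0.060 for Deptor and -0.10 to 0.014 for Tsc2. In ORX+DHT against control they ranged from -0.038 to 0.30 for Sesn1, -0.26 to 0.024 for Sesn3, -0.63 to 0.37 for Ddit4, -0.0083 to 0.35 for Eif4ebp2, -0.36 to 0.058 for Deptor and -0.22 to 0.43 for Tsc1. A minimum mean of 50 left out Sesn2 and Sesn3 in each comparison, and Ddit4, Eif4ebp1 or Sesn1 in some. Reads of 3 to 8 limit Sesn2, and 17 to 103 limit Sesn1, Sesn3, Ddit4 and Eif4ebp1.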
